A study of Drosophila melanogaster with 4 samples.

Results

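The centromere-proximal 5 Mb of arm 3R is the end of the right arm of the third chromosome that lies nearest its centromere, as assembled in release 5 of the *Drosophila melanogaster* genome. Enriched regions of the protein Su(var)3-7 were taken from the combined list of the study when they lay on 3R with a midpoint at position 1 to 5000000. This gave 514 of the 10603 enriched regions of that list and 514 of the 1704 on arm 3R, although the window makes up 17.9% of the 27.9 Mb arm. The same window held 343 of 6098 enriched regions in ChIP replicate 1 and 347 of 6295 in ChIP replicate 2. No region of the lists crossed the 5 Mb edge.

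Both ChIP libraries came from wild-type Oregon-R embryos aged 14 to 16 h, fixed in 1.8% formaldehyde and precipitated with the antibody Q3448. Each had its own input library from the same strain and stage, which has no values of its own in the lists used here. Whole embryos were used, so the lists average over all cell types, and the labels do not say whether the replicates were separate collections. Read counts are not part of the lists, so the depth behind a region is not known and its precision cannot be stated.

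Su(var)3-7 has several zinc fingers and acts in heterochromatin, where it binds heterochromatin protein 1, HP1. It is known as a dose-dependent modifier of position-effect variegation, the patchy silencing of genes placed next to heterochromatin. The heterochromatin around a centromere is rich in repeats and passes into the gene-rich euchromatin of the arm, so the proximal end of an assembled arm lies near that transition. Positions below are those of release 5 on 3R. Regions are given by position alone, without gene names or sequence, since the only annotation used here is of release 6.

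Su(var)3-7 enrichment was densest over the first 0.3 Mb of 3R, intermediate up to 1.5 Mb, and patchy from there to 5 Mb. Enriched regions covered 66.4% of the bases from 0 to 0.3 Mb in replicate 1 and 63.4% in replicate 2. From 0.3 to 1.5 Mb they covered 31.6% in each replicate, and from 1.5 to 5 Mb 14.8% in replicate 1 and 14.1% in replicate 2. Over the whole window the coverage was 21.9% in replicate 1 and 21.3% in replicate 2. The combined list covered more bases, at 73.0%, 46.4% and 26.4% of these 3 stretches in order of distance and 34.0% of the window. The stretches were read off the coverage itself, so the contrast between them is a description and was not tested.

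By fixed windows of 1 Mb, mean coverage was 40.2% ± 1.09 in the first window, 22.2% ± 0.599 in the second, 14.0% ± 0.551 in the third, 15.9% ± 1.93 in the fourth and 15.6% ± 0.263 in the fifth (SD, n = 2 ChIP replicates). The drop from the first to the second and from the second to the third window exceeded the spread between replicates. The last 3 windows lay within 1.90 points of each other, less than the largest SD among them. The first 1 Mb had 41.0% coverage in replicate 1 and 39.4% in replicate 2, against 17.1% and 16.8% from 1 to 5 Mb. The ratio was 2.37 ± 0.0279 (SD, n = 2). It was 1.79 in the combined list, and 3.67 when only the higher-scoring 50% of each replicate list was used. An exact sign-flip permutation test over 2 replicates cannot give a two-sided p below 0.5, so no test across samples was made for this or any later contrast.

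The place of a single step depended on the list. When 100 kb bins were split into a proximal and a distal part with the least squared deviation, the split fell at 0.3 Mb in replicate 1 and at 1.5 Mb in replicate 2 and in the combined list. With bins of 50 kb the splits were the same. It fell at 1.5 Mb in all 3 lists with the search extended to 10 Mb, and also with bins of 250 kb, which cannot place it at 0.3 Mb. By region number it fell at 1.5 Mb in both replicates and at 2.3 Mb in the combined list.

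**Figure D1:**
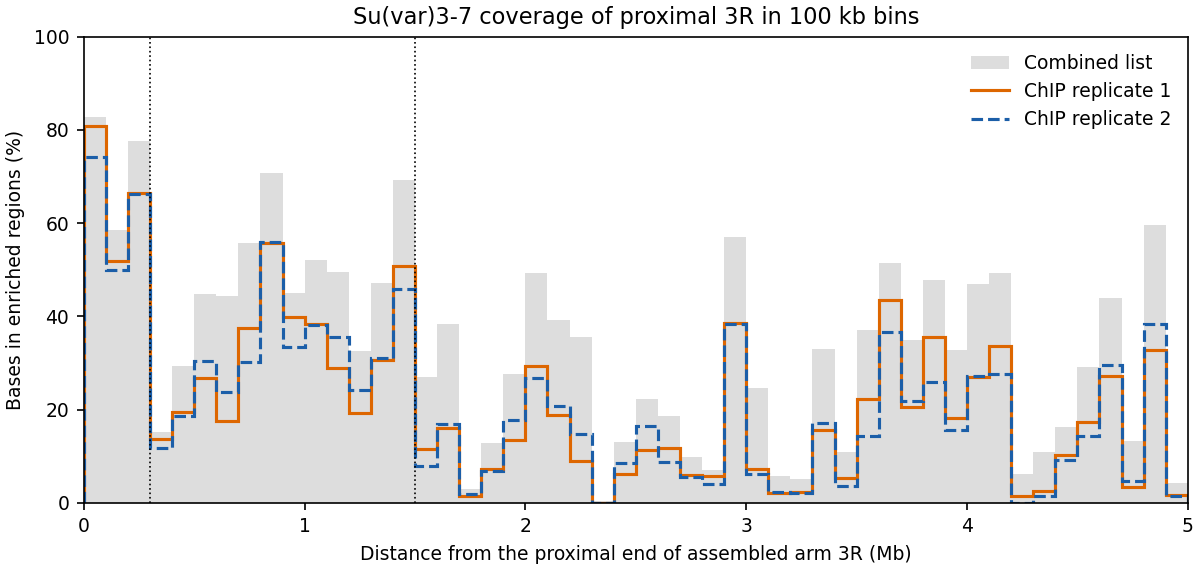
Percent of bases inside enriched regions (y axis) in 100 kb bins, by distance from the proximal end of assembled arm 3R in Mb (x axis). The grey area is the combined list, the solid line is ChIP replicate 1, the dashed line is ChIP replicate 2, and the dotted lines mark the splits at 0.3 and 1.5 Mb. Replicates 1 and 2 start at 80.8% and 74.1%, drop to 13.6% and 11.7% just past 0.3 Mb, and reach 50.9% and 45.9% just before 1.5 Mb.

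The descent was not smooth. Mean coverage was 77.5% ± 4.74 in the first 100 kb, 50.9% ± 1.35 in the second and 66.3% ± 0.158 in the third, and then 12.7% ± 1.32 from 0.3 to 0.4 Mb (SD, n = 2). It climbed again to 55.9% ± 0.147 from 0.8 to 0.9 Mb and to 48.4% ± 3.50 from 1.4 to 1.5 Mb. Of the 50 bins, 4 had a mean coverage of at least 50%, all within the first 0.9 Mb. Another 16 had less than 10%, all beyond the first 1 Mb. The replicates differed by a median of 1.88 points per bin and by at most 9.67 points, in the bin from 3.8 to 3.9 Mb. Across the 50 bins, which share 2 libraries and neighbouring sequence, the replicate profiles had a Pearson r of 0.978 and a Spearman rho of 0.968.

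Beyond 1 Mb, 9 of 40 bins kept a mean coverage of at least 30%, a limit chosen after the values were seen. Of these, 4 lay between 1 and 1.5 Mb. The other 5 stood apart from them, as bins that began at 2.9, 3.6, 3.8, 4.1 and 4.8 Mb. The bin at 2.9 Mb had 38.5% ± 0.0453 and the one at 3.6 Mb had 40.0% ± 4.95 (SD, n = 2). Those at 3.8, 4.1 and 4.8 Mb had 30.8% ± 6.84, 30.6% ± 4.22 and 35.6% ± 4.02. Mean coverage of at least 30% therefore recurred as islands up to 4.9 Mb. At 2.9, 3.6 and 4.8 Mb both replicates reached this limit. At 3.8 and 4.1 Mb only replicate 1 did, with 35.6% and 33.6%, against 25.9% and 27.7% in replicate 2.

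The 5 longest stretches without combined-list regions lay between 1.7 and 3.3 Mb. The longest stretch free of combined-list regions ran from 2300499 to 2471902 (171404 bp). Replicate 1 had no region there and replicate 2 had 1 that reached into it. The next were 1731416 to 1823501 (92086 bp), 2799987 to 2879757 (79771 bp), 3220577 to 3295979 (75403 bp) and 1854851 to 1925734 (70884 bp). The 3 stretches of 75403 to 92086 bp held no region of either replicate, and the shortest held 1 of replicate 1. The median distance between neighbouring regions was 1694 bp in replicate 1 and 2044 bp in replicate 2 within the first 1 Mb, against 4068 bp and 4109 bp from 1 to 5 Mb. Median gaps were thus shorter in the first 1 Mb in both replicate lists. Long gaps were not absent there. The longest within the first 1 Mb was 69877 bp in the combined list, 86943 bp in replicate 1 and 86669 bp in replicate 2.

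Regions were wider near the proximal end. The median width was 2650 bp in replicate 1 and 2828 bp in replicate 2 from 0 to 1 Mb, against 2185 bp and 2091 bp from 1 to 5 Mb. The difference was 601 bp ± 192 (SD, n = 2) and had the same direction in both replicates. Within the first 0.3 Mb the medians were 4273 bp in replicate 1 and 3278 bp in replicate 2, against 2213 bp and 2168 bp from 0.3 to 5 Mb. Without that first stretch the difference between 0.3 to 1 Mb and 1 to 5 Mb was 319 bp. In the combined list the medians were 3493 bp in the first window of 1 Mb, 2075 bp in the second, 1963 bp in the third, 1765 bp in the fourth and 1815 bp in the fifth.

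The number of regions varied less with distance than the covered bases did. In the same 5 windows the combined list had 109, 118, 93, 94 and 100 regions. Replicate 1 had 103, 79, 44, 56 and 61 regions in them, and replicate 2 had 103, 83, 59, 45 and 57. The proximal excess of the combined list therefore lay in region width, whereas the replicate lists had both more and wider regions there.

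The 10 widest regions found in both replicates were split between the first 0.3 Mb, with 5, and sequence beyond 1 Mb, with 5. The widest ran from 3606514 to 3630635 (24122 bp, score 0.94), 1425 bp from the one ranked 4 in width at 3632061 to 3648909 (16849 bp, score 1.22). Together this pair filled 96.6% of 42396 bp. Replicate 1 covered 94.1% and 88.4% of their bases, and replicate 2 covered 94.96% and 68.8%. The widest region joined 2 regions of replicate 1 and 3 of replicate 2, which were at most 18402 bp and 16007 bp wide. The second widest was the region nearest the proximal end, 2 to 17639 (17638 bp, score 1.38), which was 2 regions in replicate 2. In replicate 1 it lay within 1 region of 25840 bp, which also overlapped the next combined region. That replicate 1 region was the widest of its list in the window. The next widest combined regions of the first 0.3 Mb were 268514 to 285693 (17180 bp) and 203624 to 218070 (14447 bp). The remaining wide regions outside the first 0.3 Mb were 4626502 to 4639860 (13359 bp), 1040178 to 1053013 (12836 bp) and 4131991 to 4144435 (12445 bp).

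How the deposited score was computed is not stated in the labels or file headers. Differences between scores fell on base-2 logarithms of ratios of whole numbers for 326 of the 343 replicate 1 regions in the window, 322 of the 347 replicate 2 regions and 313 of the 514 combined ones. This counts ratios with a denominator of at most 1000 and a relative tolerance of 1e-09. With base e or 10 at most 1.73% did so. A score difference of 1 is therefore read here as a 2-fold difference in the underlying ratio, within a list only.

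Scores were also higher near the proximal end. The median score was 0.64 in replicate 1 and 0.74 in replicate 2 from 0 to 1 Mb, against 0.56 and 0.64 from 1 to 5 Mb. The difference was 0.086 ± 0.016 (SD, n = 2), with the same sign in both replicates. It came mainly with the first 0.3 Mb, where the medians were 0.78 in replicate 1 and 0.92 in replicate 2, against 0.56 and 0.66 from 0.3 to 5 Mb. From 0.3 to 1 Mb the medians were 0.58 and 0.70, which exceeded those from 1 to 5 Mb by 0.037 on average. In the combined list the median was 0.52 in the first 1 Mb and 0.40 in each of the following 4 windows of 1 Mb. In these 4 windows it was 0.56, 0.57, 0.56 and 0.53 in replicate 1 and 0.63, 0.61, 0.68 and 0.65 in replicate 2, with no common direction.

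The highest scores among regions found in both replicates lay at the very end of the arm: 8 of the top 10 were within the first 0.3 Mb. The top region was 43696 to 49887 (6192 bp), whose combined score was 1.85 and whose replicate scores were 1.91 and 1.88. The second, 36479 to 42638 (6160 bp), had a combined score of 1.69 and 1.73 and 1.71 in replicates 1 and 2. The third, 103077 to 112133 (9057 bp), had 1.60 in the combined list and 1.64 in both replicates. All 3 measured at least 6160 bp.

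Only 2 of these 10 lay further out. One was 2175155 to 2178760 (3606 bp), whose combined score of 1.59 stood beside 1.60 and 1.86 in replicates 1 and 2. The other was 795518 to 797748 (2231 bp), whose combined score of 1.46 stood beside 1.23 and 1.60. Both were narrower than the 8 of these 10 that lay in the first 0.3 Mb (at least 6160 bp). Among regions found in both replicates, the top one of each further 500 kb bin shows how scores varied along the window. It had a combined score of 0.89 at 1442547 to 1451849, 0.72 at 1978161 to 1983828 and 1.08 at 2907358 to 2917434. Further out it was 0.87 at 3295980 to 3301561, 1.22 at 3632061 to 3648909, 0.81 at 4124270 to 4131878 and 0.98 at 4877890 to 4887392. The lowest of these maxima lay between 1.5 and 2 Mb, not at the distal edge. Some regions found in neither replicate, given below, scored higher in their bins.

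**Figure D2:**
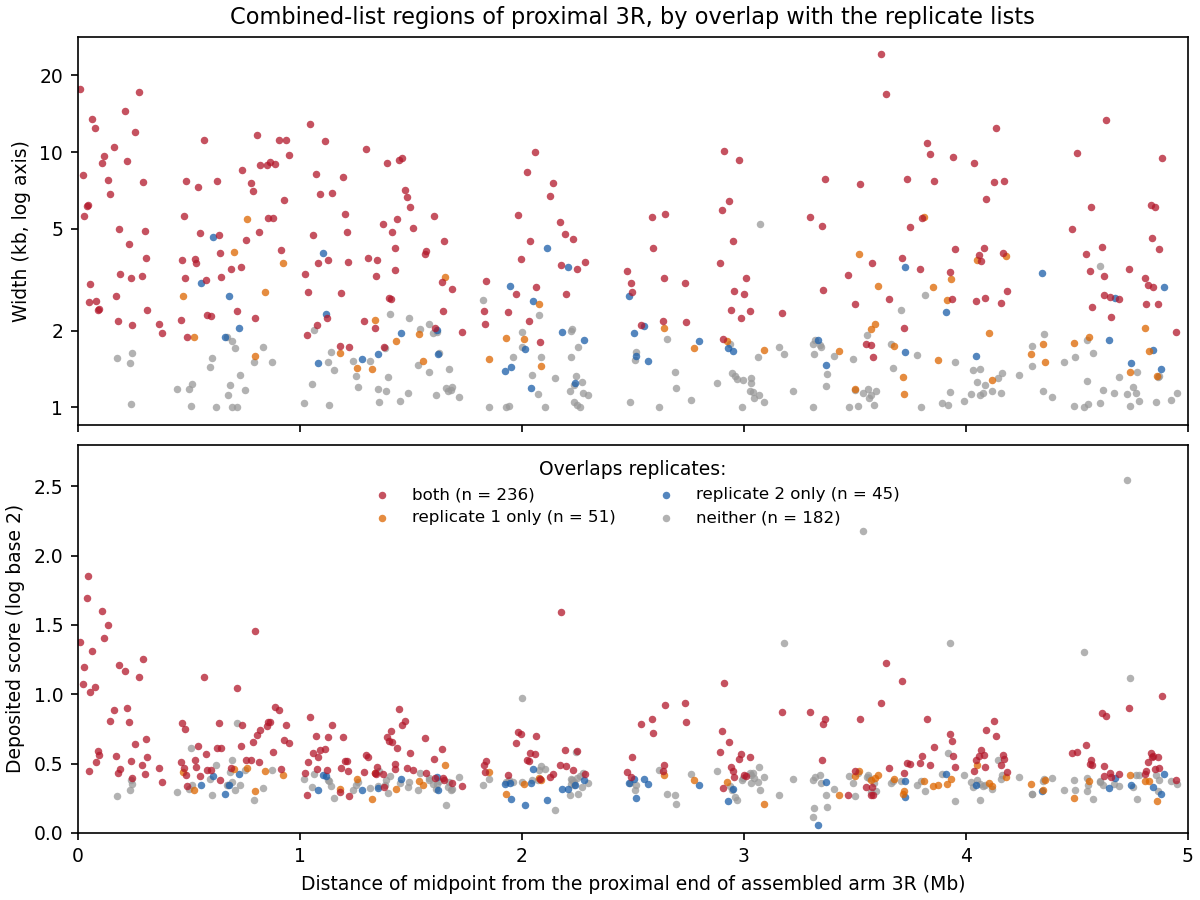
The upper panel gives width in kb on a log axis and the lower panel the deposited score, read here as a base-2 logarithm. Shown are the 514 combined-list regions by distance of their midpoint from the proximal end of arm 3R. Each point is 1 region, coloured by whether it overlaps both replicates (236), replicate 1 only (51), replicate 2 only (45) or neither (182). Combined scores above 1 among regions that overlap both replicates crowd the first 0.3 Mb, with 15 of 22 there. The grey points above 1 lie beyond 3 Mb.

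Of the 514 combined regions, 236 overlapped a region in both replicates by at least 1 bp (45.9%, 95% Wilson interval 41.7 to 50.2), and the share over the whole combined list was 38.6%. Another 51 overlapped replicate 1 only, 45 replicate 2 only, and 182 neither (35.4%, 31.4 to 39.6), against 38.7% in the whole list. Such intervals hold counting error alone and are too narrow where neighbouring regions depend on each other. Regions found in both replicates were wider, with a median of 3979 bp, and made up 72.5% of the covered bases. Those in neither had a median of 1267 bp and made up 15.0%. A wider region has more bases at which it can meet a replicate region, and the part of this in the contrast was not tested. The median score was 0.55 in both, 0.38 in replicate 1 only, 0.35 in replicate 2 only and 0.37 in neither.

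The share found in both replicates was highest at the proximal end. It was 88.2% (30 of 34, 73.4 to 95.3) in the first 0.3 Mb, a stretch read off the coverage of these lists. In the first 1 Mb it was 67.9% (74 of 109, 58.6 to 75.9). It was 48.3% (39.5 to 57.2) in the second window of 1 Mb, 38.7% (29.4 to 48.9) in the third, 33.0% (24.3 to 43.0) in the fourth and 38.0% (29.1 to 47.8) in the fifth. Over 1 to 5 Mb together it was 40.0% (35.3 to 44.8). The share found in neither was 21.1% (14.5 to 29.7) in the first 1 Mb and 39.3% (34.6 to 44.1) from 1 to 5 Mb. Coverage was also higher in the first 1 Mb and regions were wider, and denser or wider regions overlap more often by position alone. The combined list is also not independent of the replicate lists. The parts of coverage and width in these shares were not tested.

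Most regions of each replicate list were also in the other. Of the 343 replicate 1 regions 283 overlapped replicate 2 (82.5%, 78.1 to 86.2), against 75.8% in the whole list. Of the 347 replicate 2 regions 286 overlapped replicate 1 (82.4%, 78.1 to 86.1), against 79.5%. In the first 1 Mb the shares were 91.3% (84.2 to 95.3) of replicate 1 and 92.2% (85.4 to 96.0) of replicate 2, against 78.8% (73.1 to 83.5) and 78.3% (72.7 to 83.0) from 1 to 5 Mb. Beyond 2 Mb the shares varied by window. From 2 to 3 Mb replicate 1 regions were shared at 81.8% (68.0 to 90.5) and replicate 2 regions at 67.8% (55.1 to 78.3), and from 3 to 4 Mb at 69.6% (56.7 to 80.1) and 86.7% (73.8 to 93.7). These intervals overlap in both windows. The Jaccard index is the bases shared by the replicate lists divided by the bases in either. It was 0.798 in the first 1 Mb and 0.641 from 1 to 5 Mb. Replicate regions also covered more of the first 1 Mb and were wider there. The part of this in the shares and in the index was not tested.

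Where 1 region of each replicate matched 1 of the other, their edges lay close together. In these 217 pairs the edges differed by a median of 151.5 bp, against median widths of 2356 bp in replicate 1 and 2437 bp in replicate 2. Of the 236 combined regions in both replicates, 171 matched 1 region in each, and 65 joined several regions of at least 1 replicate, up to 4. The score was higher in replicate 2 in 160 of the 217 pairs. Medians were 0.59 in replicate 1 and 0.69 in replicate 2, but no common scale of the lists is stated, so these are no measure of a difference in binding.

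**Figure D3:**
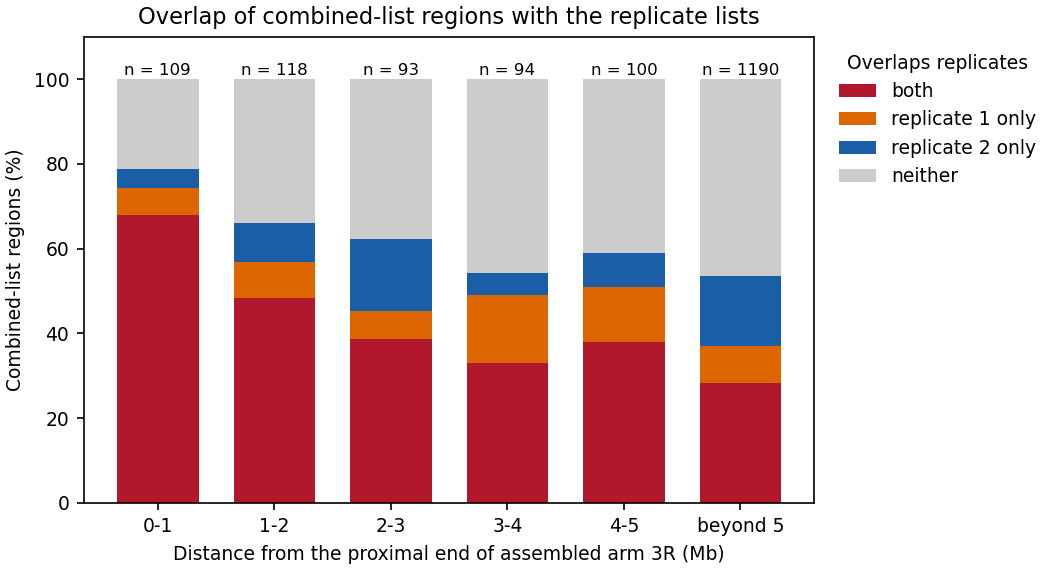
Percent of combined-list regions (y axis) that overlap both replicates, 1 replicate or neither, by distance from the proximal end of arm 3R in Mb (x axis), with the rest of the arm as the last bar. The share in both replicates is 67.9% in the first 1 Mb, between 33.0% and 48.3% in the next 4 windows and 28.2% beyond 5 Mb.

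Some of the highest scores in the window belonged to narrow regions seen in neither replicate. Of the 28 regions with a combined score above 1, 22 overlapped both replicates and 6 neither, a limit chosen after the values were seen. The 2 highest scores of all were among the 6, at 4723867 to 4724993 (1127 bp, score 2.54) and 3534176 to 3535315 (1140 bp, score 2.18). The 6 regions were 1005 to 1617 bp wide and lay beyond 3 Mb, whereas the 22 were at least 2231 bp wide. In 5 of the 6 the score was, to 9 decimals, that of another region of the list, which held for 0 of the 22. Exactly repeated scores were found in 138 of the 514 regions (26.8%, against 30.3% in the whole list). By class they made up 8.47% of regions in both replicates and 50.5% of those in neither. No replicate region was narrower than 1301 bp anywhere, and 100 of the 514 combined regions were, 95 of them in neither replicate. Whole-list shares are not given here for narrow regions, for the classes above a score of 1 or for repeated scores by class. These counts are therefore not read as traits of the window. Of all 514 combined regions 45.9% overlapped both replicates, and of those in the higher-scoring 50% of the combined list 85.0% did. A high combined score thus went more often with overlap of both replicates, but alone did not ensure it.

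The window as a whole was more densely covered than the rest of the arm. Coverage of 3R was 21.6% ± 0.428 within 5 Mb of the proximal end and 5.38% ± 0.664 beyond it (SD, n = 2), a ratio of 4.05 ± 0.579. Even from 1 to 5 Mb it was 3.18-fold that beyond 5 Mb. Median widths within 5 Mb were 2265 bp in replicate 1 and 2233 bp in replicate 2, against 1960 bp and 1903 bp beyond. Median scores were 0.57 and 0.67 within 5 Mb, against 0.52 and 0.62 beyond. The share of combined regions found in both replicates was 45.9% within and 28.2% (25.8 to 30.9) beyond.

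The sparse end of the window thus still had higher coverage than the distal arm, and its proximal end can be set beside assembled pericentric sequence. The assembled pericentric sequence 3RHet (2.52 Mb) was covered over 49.9% in replicate 1 and 33.0% in replicate 2, a wide spread around 41.4% ± 12.0 (SD, n = 2). The first 1 Mb of 3R (40.2% ± 1.09) was below 3RHet in replicate 1, at 41.0%, and above it in replicate 2, at 39.4%. Its first 0.3 Mb (64.9% ± 2.08) was above 3RHet in both replicates, at 66.4% and 63.4%. Median scores were 0.64 in replicate 1 and 0.74 in replicate 2 in the first 1 Mb of 3R, against 0.86 and 0.89 on 3RHet.

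Compared with the same 5 Mb of arms 2L and 3L, 3R had the lowest coverage. It was 21.9% in replicate 1 and 21.3% in replicate 2 on 3R, against 31.9% and 28.4% on 2L and 41.1% and 37.7% on 3L. The ratio of 3R to 2L was 0.718 ± 0.0448 and that of 3R to 3L was 0.549 ± 0.0228 (SD, n = 2). Coverage of the first 1 Mb was 40.2% ± 1.09 for 3R, 66.1% ± 5.41 for 2L and 72.5% ± 6.28 for 3L. From 1 to 2 Mb 3R, at 22.2% ± 0.599, was close to 2L, at 21.0% ± 2.70, and below 3L, at 55.9% ± 4.88. In the third and the fourth windows 3R, at 14.0% ± 0.551 and 15.9% ± 1.93, was below 2L, at 23.5% ± 2.11 and 27.6% ± 1.47, and below 3L, at 29.8% ± 0.966 and 18.9% ± 0.221. From 4 to 5 Mb 3R, at 15.6% ± 0.263, lay above 2L, at 12.5% ± 0.672, and below 3L, at 19.9% ± 0.195. Beyond 5 Mb 3R and 2L had 5.38% ± 0.664 and 5.46% ± 0.564, which overlap within their SD. The number of regions differed less than coverage, with 514 on 3R against 562 on 2L and 574 on 3L in the combined list. How far each assembled arm reaches into pericentric sequence is not given in the sources used here, so equal distances need not hold equal amounts of heterochromatin.

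**Figure D4:**
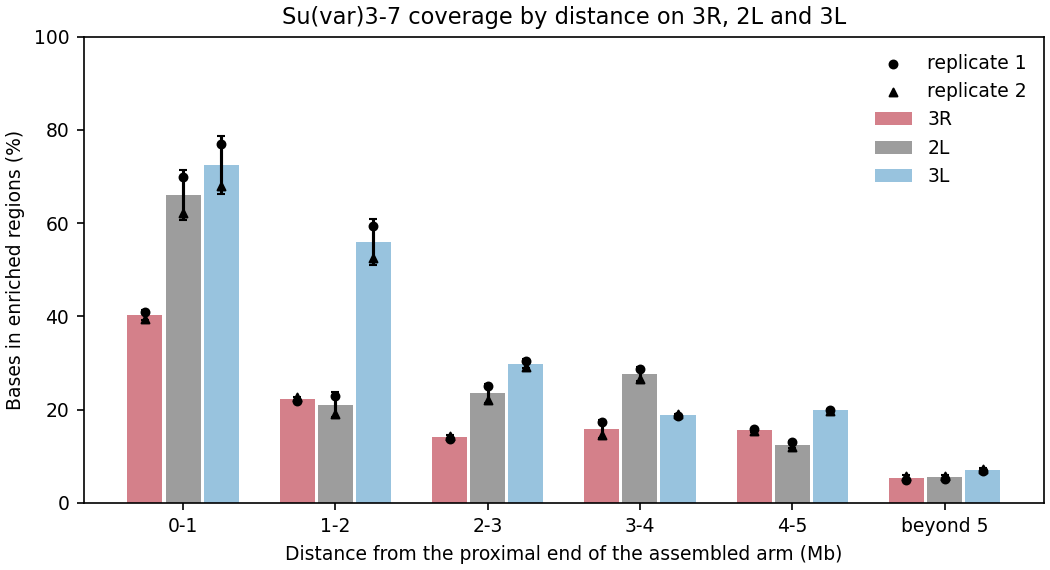
Percent of bases inside enriched regions (y axis) by distance from the proximal end of assembled arms 3R, 2L and 3L in Mb (x axis). Bars are means of the 2 ChIP replicates with their SD, dots are replicate 1 and triangles replicate 2. In the first 1 Mb the bar of 3R is at 40.2%, those of 2L and 3L at 66.1% and 72.5%, and beyond 5 Mb the bars lie between 5.38% and 7.04%.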

How the data were processed

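The submitters' processing notes name Bowtie 0.12.7, a read aligner. The authors deposited lists of enriched regions for 2 ChIP replicates and a combined list, in FlyBase release 5 coordinates per the file headers. Beside its position, each region carries a deposited score. Not given in the sources used here are the region caller, its thresholds, the treatment of repeat reads and the making of the combined list. Where reads from repeats were dropped or placed at random, regions in repeat-rich proximal sequence could be lost or gained.

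Regions were assigned by midpoint, and coverage is the percent of bases inside regions. The 1 region listed as depleted, in replicate 1, is not on 3R and was left out. Depth is unknown, and replicate numbers come from the labels. Analyses used Python 3.11.15 with numpy 2.4.6, pandas 2.3.3 and scipy 1.17.1, and functions were tested on simulated lists.

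Named regions overlap both replicates and are the 10 highest in score, the 10 widest, the highest in each 500 kb bin and the one nearest the proximal end. The 5 longest free stretches are also named. Not all named regions are printed. The window, lists and rules were chosen with earlier results of these data known.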

Additional observations from a re-analysis of the deposited data

Results flagged for a closer look

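Going outward from the proximal end, coverage of 3R was 8.18 points higher from 1 to 2 Mb than from 2 to 3 Mb (8.14 in replicate 1 and 8.21 in replicate 2). On 2L the same difference was -2.44 points (-2.02 and -2.86), so both replicates moved one way on 3R and the opposite way on 2L. Between the windows from 2 to 3 Mb and 3 to 4 Mb the difference was -1.90 points on 3R (-3.65 and -0.138), while on 3L it was 10.9 points (11.7 and 10.1). In neither case was the difference between the arms tested, and the value on 3R in the second case is smaller than its SD of 2.48 points over the replicates.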

How the results depend on the processing

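Of 64 values under alternative settings of 10 results, 24 stayed within the SD of the replicates or the counting interval and 40 moved beyond it. Of the 24, 14 are single replicates, which cannot leave the SD of 2 values, so they say nothing about stability. No value had a test. The ratio of coverage from 0 to 1 Mb to that from 1 to 5 Mb (2.37) was 1.70 by region number, 3.67 in the higher-scoring 50%, 1.79 in the combined list and 2.06 for 0 to 2 against 2 to 5 Mb. With windows added after the data were seen it was 3.45 for 0 to 0.3 against 0.3 to 5 Mb and 1.75 for 0.3 to 1 against 1 to 5 Mb; single replicates gave 2.36 to 2.39. The ratio to the arm beyond 5 Mb (4.05) was 2.95 by region number, 6.26 in the higher-scoring 50%, 2.90 in the combined list and 3.18 from 1 to 5 Mb, with 3.64 to 4.46 in single replicates. The step lay at 0.3 or 1.5 Mb in single replicates and, by region number, at 2.3 Mb in the combined list. The width difference (601 bp) was 1105 bp by means, 924 bp with neighbours merged, 1556 bp in the combined list, 799.5 bp for 0 to 0.5 Mb, 251 bp for 0 to 2 Mb, 1585 bp for 0 to 0.3 Mb and 319 bp for 0.3 to 1 Mb, with 465 to 737 bp in single replicates. In the same order without merging, the score difference (0.086) was 0.17, 0.13, 0.12, 0.034, 0.24 and 0.037, with 0.075 to 0.097 in single replicates. Without exactly repeated scores, also tried only after the data were seen, it was 0.13.

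The share of combined regions in both replicates (45.9%) was 34.2% with 50% reciprocal overlap, 85.0% in the higher-scoring 50%, 57.0% for regions of at least 1301 bp (added after the data were seen) and 54.7% to 55.8% against 1 replicate. With 50% reciprocal overlap the replicates shared 71.1% and 70.3% of their regions, and in the higher-scoring 50% 77.2% and 74.8%. The ratio to 2L was 0.903 by region number, 0.601 in the higher-scoring 50% and 0.764 in the combined list, and that to 3L was 0.760, 0.406 and 0.644, and 0.488 for 2 Mb. Single replicates gave 0.687 to 0.750 and 0.533 to 0.565. Stricter overlap lowers sharing by construction, and asking for 1 replicate in place of both cannot lower it. Where both replicate lists are cut to their higher-scoring 50%, fewer regions are left to overlap. The cause of the other changes was not tested. No paired analysis was possible because the inputs have no values in the lists used here and no result comes from a test.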

Other observations

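Within the window, wider regions had higher scores. Spearman's rho of width and score was 0.739 over 343 regions in replicate 1, 0.779 over 347 in replicate 2 and 0.627 over the 514 combined regions, which share libraries and neighbouring sequence. Against distance from the proximal end the score had a rho of -0.209, -0.189 and -0.206 in the same lists, weak values given as a description. Among the 217 one-to-one pairs, rho between the replicates was 0.756 for score and 0.776 for width.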
